A study of Mus musculus with 10 samples.

Results

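Growth factor signalling in the brain is described here through 8 genes: the ligands Bdnf, Ntf3 and Gdnf, and the receptors and co-receptors Ntrk2, Ntrk3, Ngfr, Sort1 and Gfra1. Their probes were found among the non-control probes of a whole mouse genome array through the RefSeq accession given for each probe, which yielded 16 probes of 8 genes, out of 41174 probes and 18539 named genes. The arrays carried RNA from the left hemibrains of male C57BL/6J mice, killed at 5 months after about 20 weeks on their diet from the age of 3 weeks. Each of the 10 arrays held hemibrain RNA labelled with Cy-5 and a second RNA labelled with Cy-3, and the value of a probe is the log2 of its Cy-5 signal over its Cy-3 signal. The study compared a fish oil enriched diet (FD), which the labels call n-3 PUFA enriched, with a standard lab diet (SD). The diet of each array was not settled by the labels, since the Cy-5 channel of all 10 arrays is labelled FD while their descriptions call them controls, and the methods describe fewer arrays, from mice of both diets. No comparison of diets was therefore made, the arrays were not treated as replicates of a diet, and values are given as the lowest, the median and the highest over the 10 arrays.

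Neurotrophins are secreted growth factors that keep neurons alive, guide their growth and adjust their synapses. They are made as larger precursors that proteases cut. The mature forms act through receptor tyrosine kinases of the TRK family: BDNF binds TrkB, the product of Ntrk2, and neurotrophin-3, the product of Ntf3, binds TrkC, the product of Ntrk3. The p75 receptor, the product of Ngfr, binds all neurotrophins and, together with sortilin, the product of Sort1, binds their precursors. GDNF belongs to another family of ligands and signals through the membrane-anchored co-receptor GFRA1, the product of Gfra1, and the RET kinase. In the brain, BDNF and TrkB are known for their role in activity-dependent plasticity.

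Bdnf is known for its many promoters, of which several drive transcripts that share the same coding exon. The RefSeq table of assembly GRCm38.p6 holds 7 windows of 300 bases around Bdnf start sites, against 2 each for Ntf3 and Gdnf and 1 each for Ntrk2, Ngfr and Gfra1, 14 in all for 6 of the 8 genes. Both Bdnf probes carry the same transcript accession and were not placed on exons here, so their values were not assigned to start sites. The windows were searched on both strands for the cAMP response element, a site of the activity-dependent factor CREB, in the spellings TGACGTCA, TGACGTAA and TCACGTCA, and for its core TGACG, which the first and second spellings contain and whose reverse complement the third contains. TCACGTCA was in 1 of the 14 windows, a window of Bdnf, and in 0.441% of all 32851 windows. The other full spellings were in none of the 14, and in 1.79% (TGACGTCA) and 0.499% (TGACGTAA) of all windows. The core was in 2 of the 14, that Bdnf window, within the same site, and a window of Gdnf, and in 20.8% of all windows. The Bdnf window is on chromosome 2, plus strand, at chr2:109692186-109692485 of GRCm38.p6, from 250 bases before a start site to 50 bases after it. It is shown because its site begins 38 bases before the start, in capitals here:

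Bdnf start-site window: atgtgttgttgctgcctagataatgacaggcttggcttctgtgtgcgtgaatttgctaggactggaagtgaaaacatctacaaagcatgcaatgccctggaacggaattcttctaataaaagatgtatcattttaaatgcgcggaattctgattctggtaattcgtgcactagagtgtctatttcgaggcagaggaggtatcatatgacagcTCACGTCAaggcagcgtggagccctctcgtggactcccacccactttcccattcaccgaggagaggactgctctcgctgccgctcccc

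The match describes these letters and says nothing about binding in these mice.

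The arrays lay on 4 slides, with C10-413 on slide 1, C10-415, C10-416, C10-417 and C10-423 on slide 2, C10-424, C10-425, C10-434 and C10-435 on slide 3, and C10-437 on slide 4. Array C10-434 stood apart: its Cy-5 channel was well above background at 49.8% of probes, where the other 9 ranged from 68.2% to 76.9%. The Cy-3 share was also lowest on C10-434, at 61.9%, and ran from 70.3% to 79.1% on the other 9. No spot was saturated, and the number of arrays limits the precision.

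The tissue was checked against marker lists, with each gene read on its brightest probe. In Cy-5, 7 of 8 neuronal, 6 of 6 oligodendrocyte, 5 of 6 astrocyte and 6 of 6 cortex and hippocampus markers were above Cy-3 by more than 2-fold on all 10 arrays, against 15.7% of all genes. The median of these 4 lists lay between 4.61 and 5.46 on the log2 scale. So were 3 of 5 microglial and 2 of 4 endothelial markers. The neuronal marker Eno2 and the endothelial marker Flt1 did not count as passing, because they lacked values on some arrays. Both were above 2-fold on every array with a value, 9 for Eno2 and 8 for Flt1. The Cy-3 RNA is labelled as pooled hemibrain of mice on SD, while the methods name reference RNA bought from Agilent. In that channel, 7 of 8 neuronal, 5 of 6 oligodendrocyte and 4 of 6 astrocyte markers were well above background on all arrays, at lower signal than in Cy-5. The oligodendrocyte gene Mog, the microglial gene P2ry12 and the cortical gene Tbr1 were so on none. All 5 markers of proliferating cells, with Mki67 84.5-fold higher in Cy-3 at the median, and 4 of 5 mesenchymal markers, with Col1a1 50.6-fold higher, were above Cy-5 by more than 2-fold on all arrays. The labels name hemibrain for both dyes, and these marker levels differed between the dyes. Every ratio below compares hemibrain RNA with that second RNA. In such bulk RNA, fewer cells of a type and less RNA per cell cannot be told apart.

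Most receptor probes were far brighter in the hemibrain channel than in Cy-3, and the Bdnf and Gdnf probes were not. Of the 16 probes, 11 were above Cy-3 by more than 2-fold on all 10 arrays, against 12.4% of all probes. For Ntf3 and Gfra1 A_52_P311022 that count rests on computed ratios, since neither dye was well above background on C10-434. With a dim dye taken at its bound, as explained for Ntf3 below, 9 of the 16 were above 2-fold on all arrays, against 10.8% of all probes, and all 9 were receptor or co-receptor probes. A single probe, that of Gdnf, was below Cy-3 by more than 2-fold on all arrays, against 14.3% of all probes (11.3% with a dim dye at its bound). The median over the 16 probes was 2.57, against 0.04 over all probes. In Cy-5, 13 of the 16 were well above background on all arrays (49.4% of all probes), and the remaining 3 failed on C10-434 alone. In Cy-3, 12 of the 16 were so (60.9%), and 11 were so in both dyes (45.3%).

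**Figure D1:**
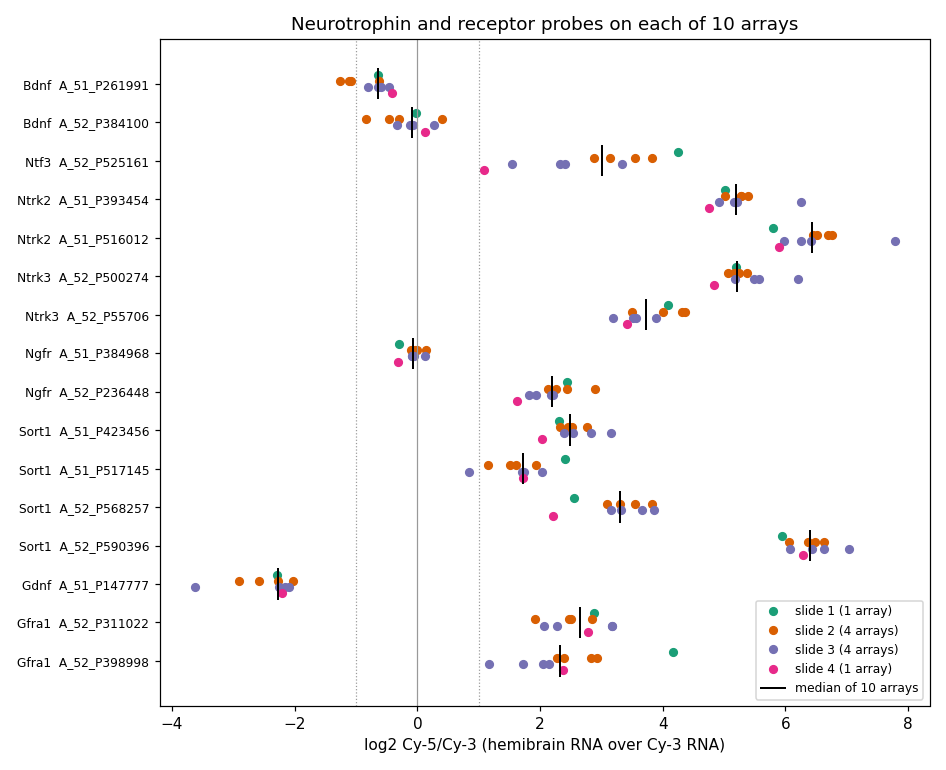
Log2 Cy-5/Cy-3 of the 16 probes (rows) on each of the 10 arrays (points, coloured by slide), with the median over arrays as a black bar and dotted lines at 2-fold either way. The Ntrk2, Ntrk3 and Sort1 probes lie to the right, the Bdnf probes and A_51_P384968 of Ngfr lie near 0, and Gdnf lies to the left of -2.

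Among the ligands, Bdnf, the activity-regulated neurotrophin, was measured by 2 probes with clear signal in both dyes on all arrays. On the brighter probe, A_51_P261991, which is spotted 10 times on each array (6 to 10 spots used), the log2 ratio was -1.26 on C10-415, -0.64 at the median and -0.42 on C10-437. Bdnf signal was thus lower in the hemibrain than in the Cy-3 RNA on 10 of 10 arrays, at 0.640 times the Cy-3 signal at the median and 0.418 to 0.747 times over the arrays. The Cy-5 signal ran from 2224 to 4835 and the Cy-3 signal from 3061 to 7559 intensity units. Within an array, the spots of the probe differed by an SD of 0.05 to 0.13 on the log2 scale. The lowest 3 arrays, C10-415, C10-416 and C10-417, were on slide 2, where the values ran from -1.26 to -0.62, while those of slide 3 ran from -0.81 to -0.46.

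The other Bdnf probe, A_52_P384100, gave a ratio of -0.83 on C10-415, -0.10 at the median and 0.40 on C10-423. Its sign was not settled: the median was 0.11 after loess within each array, 0.06 with a floor on the signals and 0.01 with normexp background correction. It lay above A_51_P261991 on 10 of 10 arrays, by 0.13 to 1.02 and 0.64 at the median. The gap of 0.55 between the medians of these probes was close to that of 2620 genes with 2 probes well above background in both dyes, whose median gap was 0.53. On both probes, C10-415 had the lowest ratio.

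Ntf3, which encodes neurotrophin-3, was dim. Its probe, A_52_P525161, had Cy-5 signals from 51.4 to 331 units, clear of background on 9 arrays, and a Cy-3 signal clear of it on C10-437 alone. Where 1 dye was not well above background, only a bound can be given. In place of its signal stands that of the dimmest probe well above background in that dye on that array, or the probe's own signal if higher. On 8 arrays Ntf3 was at least 3.05 to 7.06-fold higher in the hemibrain channel, and on C10-437, where both dyes were measured, it was 2.11-fold higher. On C10-434 neither dye was well above background. The computed ratios ran from 1.08 to 4.24 with a median of 3.01, and their spread over the arrays rests on Cy-3 signals that ran from 12.7 to 157 units.

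Gdnf, the ligand of the GFRA1 and RET receptor complex, was the only gene of the 8 with a higher signal in Cy-3 by more than 2-fold on all arrays. The log2 ratio of A_51_P147777 was -3.63 on C10-434, -2.27 at the median and -2.03 on C10-415. Its Cy-3 signal of 407 to 760 units was well above background on all arrays, while its Cy-5 signal of 102 to 160 units was so on 9 arrays. On C10-434, with a Cy-5 signal of 32.9 units, it was at least 3.26-fold higher in Cy-3. The other arrays lay between -2.90 and -2.03.

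Ntrk2, the gene of the BDNF receptor TrkB, had the highest median ratio of the 16 probes. Ntrk2 is known to make a full-length receptor and a truncated form without the kinase domain, and its 2 probes carry different transcript accessions. On A_51_P516012 (NM_008745), the log2 ratio was 5.80 on C10-413, 6.43 at the median and 7.78 on C10-434. On A_51_P393454 (NM_001025074), it was 4.75 on C10-437, 5.19 at the median and 6.25 on C10-434. At the median, the hemibrain signal was thus 86.2 and 36.5 times the Cy-3 signal. On C10-434, the Cy-3 signal of A_51_P516012, 38.2 units, was not well above background, so the ratio there is a bound of at least 128-fold. Without C10-434 the highest values were 6.76 and 5.38. The probe A_51_P516012 lay above A_51_P393454 on all 9 arrays where both were measured in both dyes, by 0.78 to 1.503 and 1.17 at the median. The probes were not placed on exons here, so this difference is one between probes and not a measure of receptor forms.

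Ntrk3, the gene of the neurotrophin-3 receptor TrkC, was high on both of its probes. A_52_P500274 (NM_182809) gave 4.83 on C10-437, 5.21 at the median and 6.20 on C10-434, where its Cy-3 signal was not well above background and the bound is at least 73.6-fold. A_52_P55706 gave 3.18 on C10-435, 3.72 at the median and 4.37 on C10-416. The hemibrain signal was thus 37.1 and 13.2 times the Cy-3 signal at the median. A_52_P500274 was the higher on all 9 arrays where both were measured in both dyes, by 0.79 to 2.39 and 1.42 at the median.

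**Figure D2:**
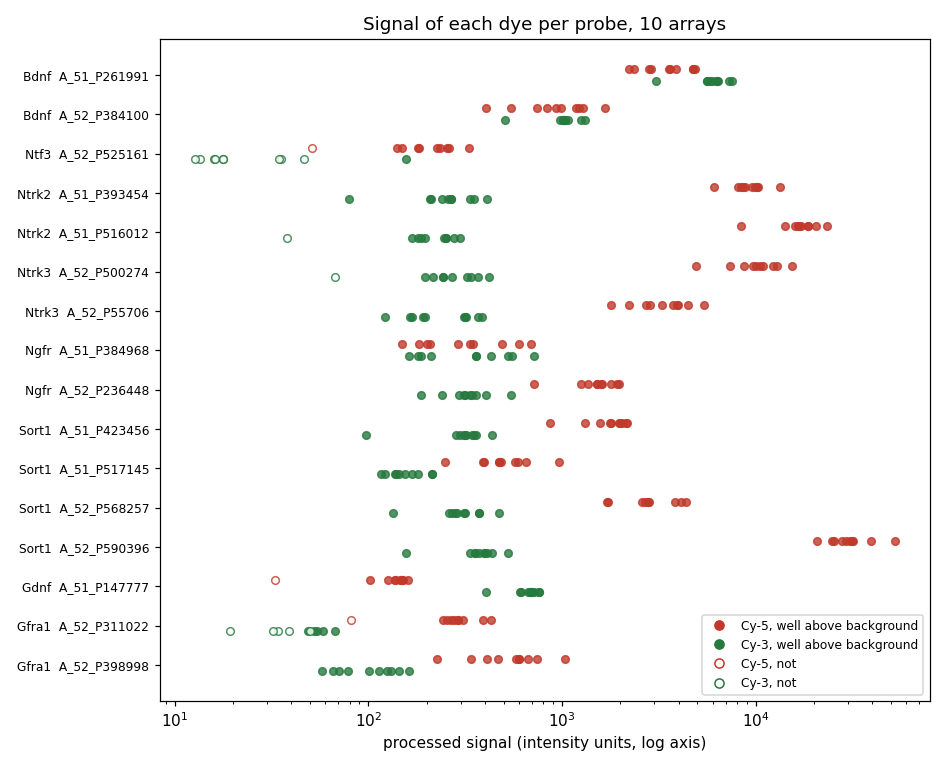
Processed signal of each dye (log axis, intensity units) for the 16 probes (rows) on 10 arrays, filled where well above background and open where not. Cy-3 signals of the Ntrk2 probes stayed under 409 units while their Cy-5 signals were 6061 units or more, and the Ntf3 Cy-3 points are open on 9 arrays.

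Ngfr encodes the p75 receptor, which in the adult forebrain is known mainly from cholinergic neurons. Its 2 probes gave different answers. On A_52_P236448, spotted 10 times, the log2 ratio was 1.62 on C10-437, 2.20 at the median and 2.89 on C10-415, so that the hemibrain signal was 4.60 times the Cy-3 signal at the median. On A_51_P384968, it was -0.31 on C10-437, -0.07 at the median and 0.14 on C10-415. The sign of this second probe was not settled, since its median was 0.12 after loess and 0.01 with a floor on the signals. A_52_P236448 lay above it on 10 of 10 arrays, by 1.88 to 2.75 and 2.21 at the median. The gap between the medians of the 2 probes, 2.28, was wider than in 92.7% of the 2620 genes with 2 probes well above background in both dyes.

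The flat ratio of A_51_P384968 came with signals that moved together in both dyes. The Cy-5 signal ran from 150 to 209 units on slide 2 and from 336 to 688 on slide 3, and the Cy-3 signal from 162 to 210 on slide 2 and from 358 to 716 on slide 3, so that the slides did not overlap in either dye. With limma over all probes and Benjamini-Hochberg adjustment, the log2 Cy-5 signal was higher on slide 3 by 1.47 ± 0.33 (SE, 4 arrays each, adjusted p = 0.0342), and the Cy-3 signal by 1.499 ± 0.28 (adjusted p = 0.000984). This was the only 1 of the 16 probes called in each dye alone, against 1.49% of all probes in Cy-5 and 7.22% in Cy-3. Its ratio differed between these slides by -0.03 ± 0.15. Its range over the 10 arrays, 0.46, was at the 7.78th percentile of 18642 probes well above background in both dyes, whose median range was 0.83.

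**Figure D3:**
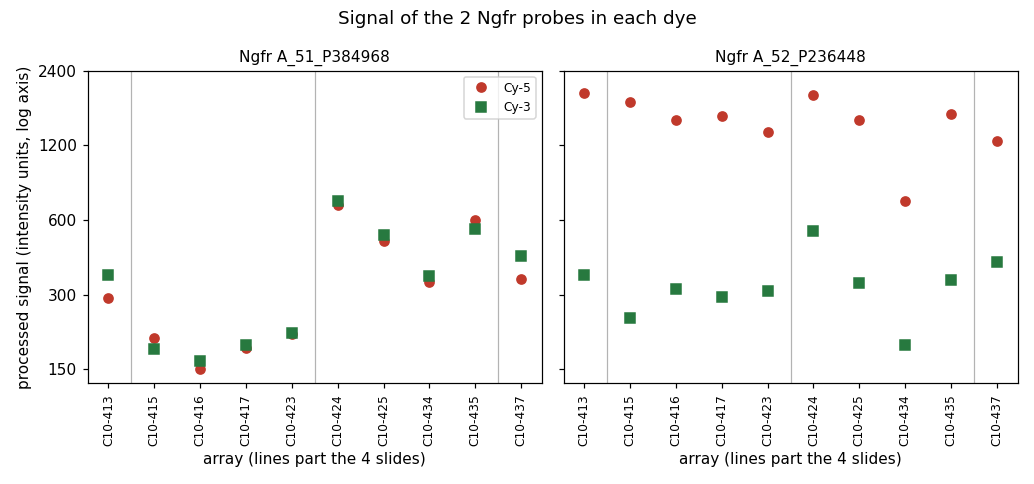
Processed signal (log axis, intensity units) of the 2 Ngfr probes in Cy-5 (circles) and Cy-3 (squares) on each array, with vertical lines between the 4 slides. For A_51_P384968 both dyes step up together from slide 2 (150 to 210 units) to slide 3 (336 to 716 units), while for A_52_P236448 Cy-5 stays above Cy-3 on every array.

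The cholinergic markers that accompany Ngfr in the basal forebrain were mixed. Slc5a7, the choline transporter, cleared background on 9 arrays in Cy-5 but on 0 in Cy-3, and was at least 4.18 to 13.0-fold higher in the hemibrain. Chat and Slc18a3 had computed medians of 0.23 and 0.25, and neither passed 2-fold on all arrays. Slc18a3 was well above background on only 7 arrays in Cy-5 and 8 in Cy-3, with computed ratios of -0.90 to 1.42. For Chat these counts were 9 and 10. Whether these cells account for the Ngfr signal was not tested.

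Sort1 encodes sortilin, a sorting receptor that also carries BDNF precursor within cells, and it was covered by 4 probes, each well above background in both dyes on all arrays. All 4 were higher in the hemibrain channel, to very different degrees. A_52_P590396 gave 5.95 on C10-413, 6.40 at the median and 7.04 on C10-434. A_52_P568257 gave 2.22 on C10-437, 3.31 at the median and 3.85 on C10-435. The probes A_51_P423456 and A_51_P517145 had medians of 2.49 and 1.72, with ranges of 2.03 to 3.16 and 0.85 to 2.41. In folds at the median these are 84.4, 9.92, 5.61 and 3.29. Only A_51_P517145 failed to pass 2-fold on all 10 arrays, and it failed on C10-434 alone.

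A_52_P590396 was above each of the other Sort1 probes on 10 of 10 arrays, by 3.07, 3.83 and 4.64 at the median. The order of the remaining probes held on 10 of 10 arrays for A_52_P568257 over the other two. It held on 9 of 10 arrays for A_51_P423456 over A_51_P517145, which C10-413 turned by -0.10. The gap of 4.68 between the highest and lowest medians exceeded that of 97.6% of the 82 genes with 4 probes well above background in both dyes, whose median gap was 1.76.

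**Figure D4:**
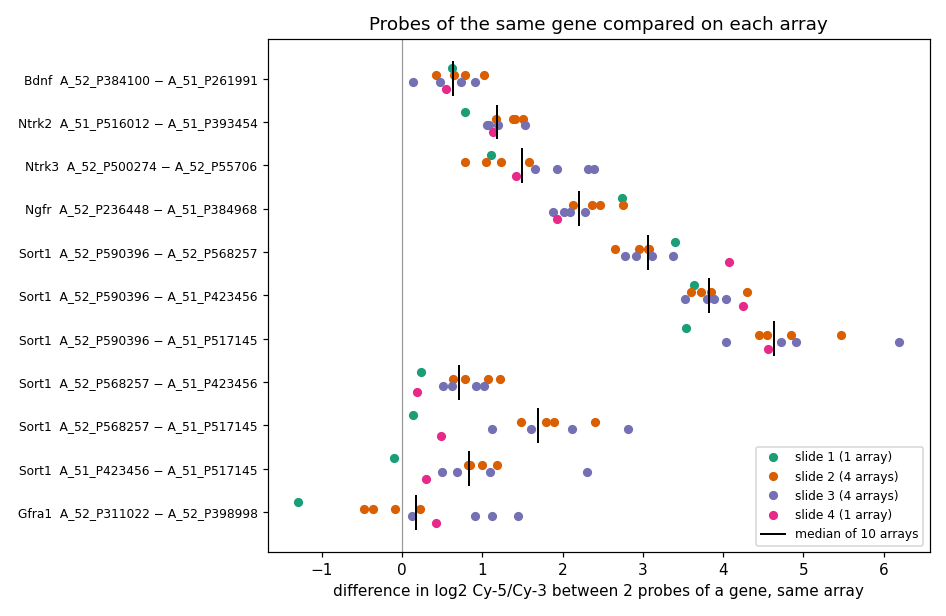
Difference in log2 Cy-5/Cy-3 between pairs of probes of the same gene (rows) on each array (points, coloured by slide), with the median as a black bar. All 10 points lie above 0 in 9 of the 11 pairs, the exceptions being A_51_P423456 against A_51_P517145 of Sort1 on 1 array and the Gfra1 pair, which lies on both sides of 0 and was measured in both dyes on 5 arrays.

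Gfra1, the GDNF co-receptor, was higher in the hemibrain channel on both probes, at low signal. A_52_P398998 gave 1.16 on C10-434, 2.32 at the median and 4.17 on C10-413, 5.00-fold at the median, with Cy-5 signals of 226 to 1033 units. Its range of 3.00 was wider than in 99.6% of probes well above background in both dyes. A_52_P311022 was measured in both dyes on 5 arrays, with ratios of 1.92 to 2.88. On 4 further arrays its Cy-3 signal was not well above background, and it was at least 4.06 to 6.92-fold higher in Cy-5. On C10-434 neither dye was. On the 5 arrays where both probes were measured in both dyes, A_52_P311022 was the lower on all but 1, with differences of -1.29 to 0.22 and a median of -0.36. The computed ratios of all 10 arrays gave a median difference of 0.18, and this turned to -0.37 both with normexp and with a floor, so the order of these probes was not settled.

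Ordered by median, the 16 probes ran from Ntrk2 A_51_P516012 and Sort1 A_52_P590396, 6.43 and 6.40, to Gdnf. These first 2 probes did not differ in a fixed direction, since the Ntrk2 probe was the higher on 3 of the 9 arrays where both were measured in both dyes. Below them, Ntrk3 A_52_P500274 was above Ntrk2 A_51_P393454 on 7 of 9 such arrays. Ntrk2 A_51_P393454 was above Ntrk3 A_52_P55706 on 10 of 10, and that probe was above Sort1 A_52_P568257 on 8 of 10. Ntf3 and Gfra1 A_52_P311022 could not be placed over all arrays, since their Cy-3 signals were well above background on 1 and 5 of the 10. On those 5 arrays, Gfra1 A_52_P311022 was above Sort1 A_51_P423456 on 2. Sort1 A_51_P423456 and Gfra1 A_52_P398998 were each the higher on 5 of 10 arrays, and the Gfra1 probe was above Ngfr A_52_P236448 on 6 of 10. A clear step followed Sort1 A_51_P517145, which was above Ngfr A_51_P384968 on 10 of 10 arrays. Ngfr A_51_P384968 and Bdnf A_52_P384100 then changed places on 4 arrays. Bdnf A_52_P384100 was above Bdnf A_51_P261991 on 10 of 10 arrays, and that probe was above Gdnf on all 9 arrays measured in both dyes.

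The slides hold different samples, so slide, labelling and animal cannot be told apart. Slides 2 and 3, with 4 arrays each, were compared as a technical check with limma over all 40299 probes with values. Of the 16 probes 0 were called at an adjusted p of 0.05, against 0.0744% of all probes, and 2 had an unadjusted p under 0.05, against 10.0%. These were Gfra1 A_52_P398998, lower on slide 3 by -0.84 ± 0.26 (SE, limma adjusted p = 0.285), and Ntf3, by -0.95 ± 0.37 (adjusted p = 0.418). The Cy-3 signal of Ntf3 was not well above background on any of these 8 arrays, so its difference between slides cannot be read as measured. The brighter Bdnf probe was 0.39 ± 0.18 higher on slide 3 (adjusted p = 0.535). The labels do not tie each array to an animal. These p-values only set the difference between the 2 slides against the spread of the arrays within them.

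The wider pathway was read from a list of 49 genes, of which 47 had a probe, each on its brightest one. Of the 47, 11 were above Cy-3 by more than 2-fold on all arrays and 4 were below, against 15.7% and 16.1% of all 17659 genes tested. The remaining 32 did neither, and the list median was 0.56, against 0.05 over all genes. Among those 32, Kidins220, Bex3, Frs2 and Sh2b1 lacked values on some arrays and so could not count as passing. The 17659 genes had values on all arrays.

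Among 4 further ligands, 0 were above and 1 was below. Ntf5, which encodes neurotrophin-4, another TrkB ligand, had a median of -2.83, with a Cy-5 signal not clear of background on 2 arrays. Ntf5 was thus below 0 on every array, as were Gdnf and the brighter Bdnf probe. Artn had clear Cy-5 signal on 2 arrays, and Nrtn and Pspn had medians of -0.17 and -0.15.

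Among 10 further receptors, 5 were above by more than 2-fold on all arrays and 0 were below. Lingo1, a p75 co-receptor on neurons, was the highest at 4.55, followed by the GDNF-family co-receptor Gfra4 at 4.34, the sortilin relative Sorcs3 at 3.38 and the Nogo receptor Rtn4r at 3.05. Ncam1, an alternative GDNF receptor, had a median of 1.55. Ret, the signalling partner of GFRA1, was well above background on 1 array in each dye, so no ratio can be read for it.

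In the remaining roles the genes were spread to both sides. Of 7 genes of precursor processing, 2 were above and 1 was below. The prohormone convertases Pcsk1 and Pcsk5 were not well above background in Cy-3 on any array, and were at least 15.3 to 80.1-fold and 10.2 to 53.4-fold higher in the hemibrain. Furin, the general convertase, had a median of 0.03. Mmp9, a protease that cleaves the BDNF precursor, had a median of -4.44, and was at least 10.0-fold higher in Cy-3 on the 3 arrays where its Cy-5 signal was not well above background.

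Of 16 adaptors and kinases downstream of TRK and RET, 1 was above and 2 were below. Ptpn11, the phosphatase SHP2, had a median of 1.33. The adaptor Shc1 had a median of -2.05 and the PI3-kinase subunit Pik3r1 one of -3.73, both measured in both dyes on all arrays. Of 5 partners of p75, Maged1 was above on all 10 arrays, at 1.69, and Kidins220 was above on each of the 7 arrays where it had a value, at 1.89. Traf6 and Arhgdia went the other way, below 0 on every array, with medians of -1.22 and -1.01, though neither passed 2-fold on all arrays. Bex3 had a median of 0.83. A further 5 genes were listed as targets of the pathway. Arc and Npas4, both immediate early genes, were above, at 4.14 and 3.19. Egr1, Egr2 and Creb1, the gene of CREB, were not, at 0.59, 0.81 and -0.70. On 3 arrays the Npas4 Cy-3 signal was not well above background, and Npas4 was at least 6.81 to 11.3-fold higher in Cy-5 there. Among genes well above background in at least 1 dye on all arrays, the highest computed medians were those of Pcsk1, Pcsk5 and Lingo1, the first 2 with bounds alone, and the lowest were those of Mmp9, Pik3r1 and Ntf5.

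**Figure D5:**
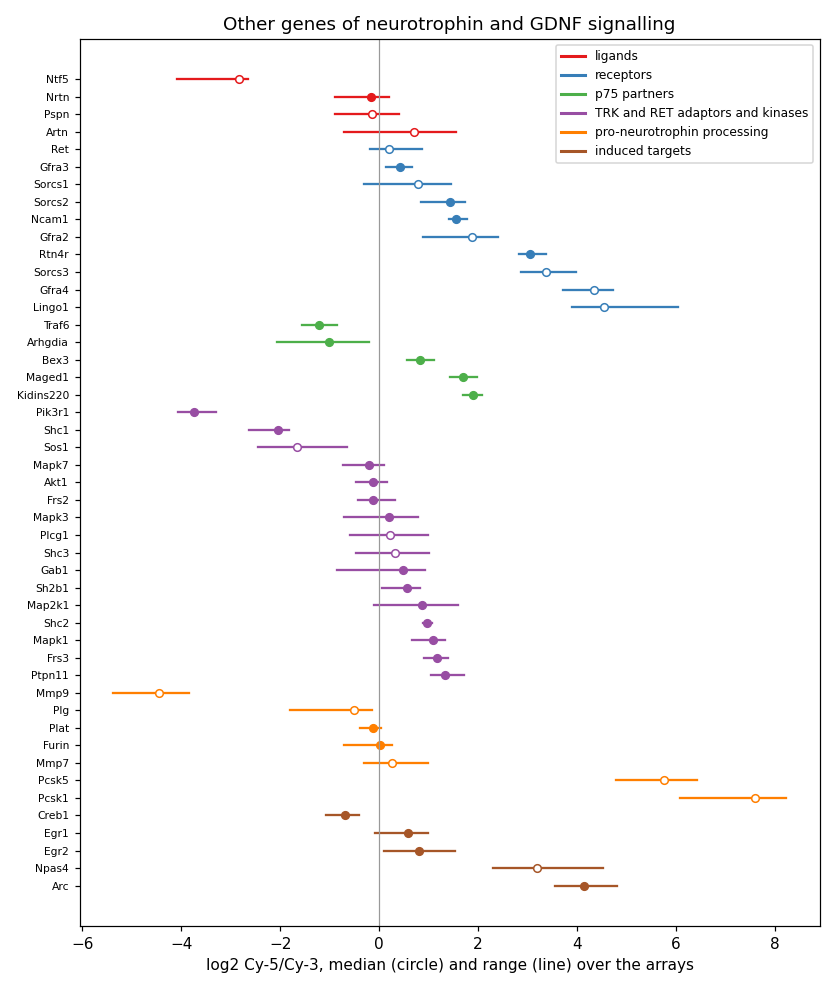
Log2 Cy-5/Cy-3 of 47 further genes of neurotrophin and GDNF signalling (rows, coloured by role), with the median over arrays as a circle, filled where both dyes were well above background on all 10 arrays, and the range as a line. The receptors lie at or to the right of 0, with Lingo1 at 4.55, and the ligands lie at or to the left of 0 except Artn at 0.70.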

How the data were processed

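Hemibrain RNA in Cy-5 and a second RNA in Cy-3 were hybridised to 10 Agilent arrays. The authors deposited the scanner output of Feature Extraction 10.10.1.1, with processed signals as linear intensities after background subtraction and dye normalization, and a deposited log10 ratio of Cy-5 over Cy-3. They also deposited 1 log2 value per probe and array, which lay within 0.001 of log2 of the processed signals, Cy-5 over Cy-3, at all 409862 values compared, so scale and direction were settled. The median of these values lay between -0.05 and 0.10 on each array, and no further centring was found. Per the methods, GeneSpring and LOWESS followed. The array annotation is on an older build than the RefSeq table (GRCm38.p6), which was used for names and promoter windows alone.

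Here log2(processed Cy-5/processed Cy-3) was taken from the deposited intensities, with control spots left out, outlier-flagged spots (104 to 630 of 45018 an array) removed and replicate spots averaged. A probe was taken as well above background where the flag was set at a share of 0.5 or more of its spots. Counts over all arrays require a value on all 10. The brightest probe stood for a gene in lists. Of 41174 probes, 66.1% matched a gene. Bdnf-like genes were ranked by mean absolute difference from the brighter Bdnf probe. All probes matched to the 8 genes by accession were named, with pathway genes by role and the 3 highest and 3 lowest. Probes without a matching accession were not searched for by gene name. The members and lists were chosen with earlier results of these data known. Slides were compared with limma 3.58.1 in R 4.3.3, which on simulated data of 40299 probes recovered 45% of 200 probes shifted by 1.5, with 5 false calls. Alternatives were loess (span 0.3), median centring, normexp (offset 50), a floor on subtracted signals, the deposited values, 1.5-fold, another flag, single dyes, and leaving out arrays. Sorl1 and Vgf, with no named probe, were not analysed here. Apart from the 49 listed genes, 2 more of the pathway are not reported here.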

Additional observations from a re-analysis of the deposited data

Results flagged for a closer look

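Both Ntrk2 probes, A_51_P393454 and A_51_P516012, had their highest ratio on array C10-434, far from the other 9 arrays. The gap to the next array was 0.580 and 0.514 of the whole range, past the 95% critical value of Dixon's test for 10 values. For A_51_P516012 the Cy-3 signal was dim there, and with its ratio at the bound of 128-fold, the gap was 0.196 of the range, under that value. The computed ratios were 6.25 and 7.78, against highest values of 5.38 and 6.76 on the other arrays. On C10-434 the Cy-3 signals of these probes, 79.6 and 38.2 units, were their lowest, and the second was not well above background. C10-434 also had the fewest probes well above background in each of the dyes. The part of this array in the result was not tested beyond leaving it out. Both ends of 16 probes were looked at, and chance alone flags about 1 in 20 groups of values.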

How the results depend on the processing

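The number of probes above 2-fold in Cy-5 on all arrays, 11, was 2 with normexp background correction, and the number above 2-fold in Cy-3, 1, was 0. The first was 9 with a dim dye at its bound (added after the data were seen), 8 with a floor on the signals, and 11 to 12 with loess, median centring, the deposited values, 1.5-fold, or without C10-434 or C10-437. With normexp, Ntrk2 A_51_P393454 fell to 0.78 on C10-413 and 2.53 on C10-415, while it stayed at 4.62 on C10-416. Normexp moved 13 of 16 medians and a floor 11, by at least the SD over the arrays, and loess 1. Taking all probes of a gene moved 4 of 6 genes, and the other settings moved none. The moved medians include bright probes, such as Sort1 A_52_P590396, 6.40 against 5.77 with normexp. No probe past 2-fold at the median turned its sign. Of 11 differences between probes, normexp moved 2 and a floor 1. The probes called between slides, 30 in all, were 0 with normexp, 1 with a floor, 68 among probes well above background in Cy-5, 600 in Cy-5 alone and 2909 in Cy-3 alone, and leaving out an array gave 0 to 18. Without C10-423 the count was 18, without C10-415 it was 2, and without any of the other 6 arrays it was 0. The cause was not tested. Loess raised the median of all probes by 0.10 to 0.27. No paired analysis was possible because the labels give no shared replicate numbers.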

Other observations

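The genes whose ratios followed those of the brighter Bdnf probe most closely over the 10 arrays were Atp6v1a, a proton pump subunit, Zfp846 and Ercc5, a DNA repair nuclease. After each gene's own median was taken off, their mean absolute differences from Bdnf were 0.085, 0.086 and 0.090 on the log2 scale, against a median of 0.31 over 10532 genes well above background in both dyes. They were picked as the closest of all these genes, so the likeness has no test.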
